A study of Mus musculus with 12 samples.

Results

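The comparison described here sets cells with the second brightest Sox2 reporter signal (HiMed) against cells with the dimmest measured signal (Low), both sorted from the epithelium of the mouse circumvallate papilla. Its libraries were assigned by the labels alone, and it takes the 3 HiMed and the 3 Low libraries, 6 of the 12 libraries of the series. All mice carried the Sox2GFP reporter, in which green fluorescent protein (GFP) reports activity of the Sox2 gene. They were adults of 11 to 12 weeks. The epithelium was lifted from the papilla with enzymes, dissociated into single cells and sorted by GFP brightness. Cells without GFP were not kept, so Low is the dimmest GFP-positive fraction and no GFP-negative cells were measured. Each library came from a pool of 7 to 13 mice and from polyadenylated RNA. The spread between libraries is therefore a spread between pools, and differences between single animals were not measured. The other 2 bins, High and MedLow, were not compared. They entered only the choice of genes tested, the scaling of libraries and the estimate of the spread between libraries.

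The circumvallate papilla is a trench-lined papilla at the back of the tongue that carries many taste buds. Its epithelium renews all the time from basal progenitor cells, which give rise both to taste bud cells and to the keratinocytes between and above the buds. Sox2 encodes a transcription factor present at low level in lingual progenitors and at higher level in and around taste buds, where it is needed for taste cells to form. Hedgehog, Wnt, Notch, bone morphogenetic protein (BMP) and fibroblast growth factor (FGF) signals are known to act in taste papillae, and the ducts of von Ebner's glands open into the base of the trench.

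The libraries held 36.9 to 55.6 M counts in HiMed and 25.7 to 43.1 M in Low. Values are given as CPM, counts per 1000000 counts of a library after scaling for composition, and ± is a standard deviation over n = 3 libraries. A gene was called when edgeR's quasi-likelihood test gave an adjusted p below 0.05 over all 17432 genes tested. HiMed and Low were far apart: 4120 genes were called (23.6% of those tested), 2158 of them higher in HiMed (12.4%) and 1962 lower (11.3%). The leading principal component of the 6 libraries held 62.8% of the variance and separated the bins. The next held 15.5% and set HiMed replicate 1 apart from the other 2 HiMed libraries. Among genes at 10 CPM or more, 94 were at least 2-fold lower in HiMed replicate 1 than in both other HiMed libraries and 18 at least 2-fold higher. Without that library 2069 genes were called higher in HiMed and 1632 lower. In bulk RNA a change in the share of a cell type and a change in RNA per cell cannot be told apart, and this holds for every gene below.

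Large differences were common in both directions. Called genes that differed by at least 2-fold numbered 1012 higher and 650 lower in HiMed, and 154 were at least 16-fold higher and 199 at least 16-fold lower. For 6728 genes (38.6% of those tested) the 3 HiMed libraries lay wholly above or wholly below the 3 Low libraries, and these included 4052 of the 4120 called genes. The median log2 fold change over all genes was -0.01, so the medians of gene groups below can be read against a value near 0. Counts of group members called can be read against the 12.4% of all genes tested that were higher and the 11.3% that were lower.

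Sox2 itself followed the sort. It had 168, 173 and 173 CPM in HiMed, against 71.1, 76.1 and 63.8 CPM in Low. The bins did not overlap, and the means were 171 ± 2.64 CPM in HiMed and 70.3 ± 6.17 CPM in Low (log2 fold change 1.29, SE 0.07, adjusted p = 5.7e-08). The eGFP transcript of the reporter had 255, 224 and 259 CPM in HiMed, against 91.1, 80.2 and 81.4 CPM in Low. It was likewise higher in every HiMed library, by a log2 fold change of 1.55 (SE 0.08, adjusted p = 3.1e-08). The ratio of eGFP to Sox2 counts was 1.44 ± 0.123 in HiMed and 1.20 ± 0.129 in Low.

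**Figure D1:**
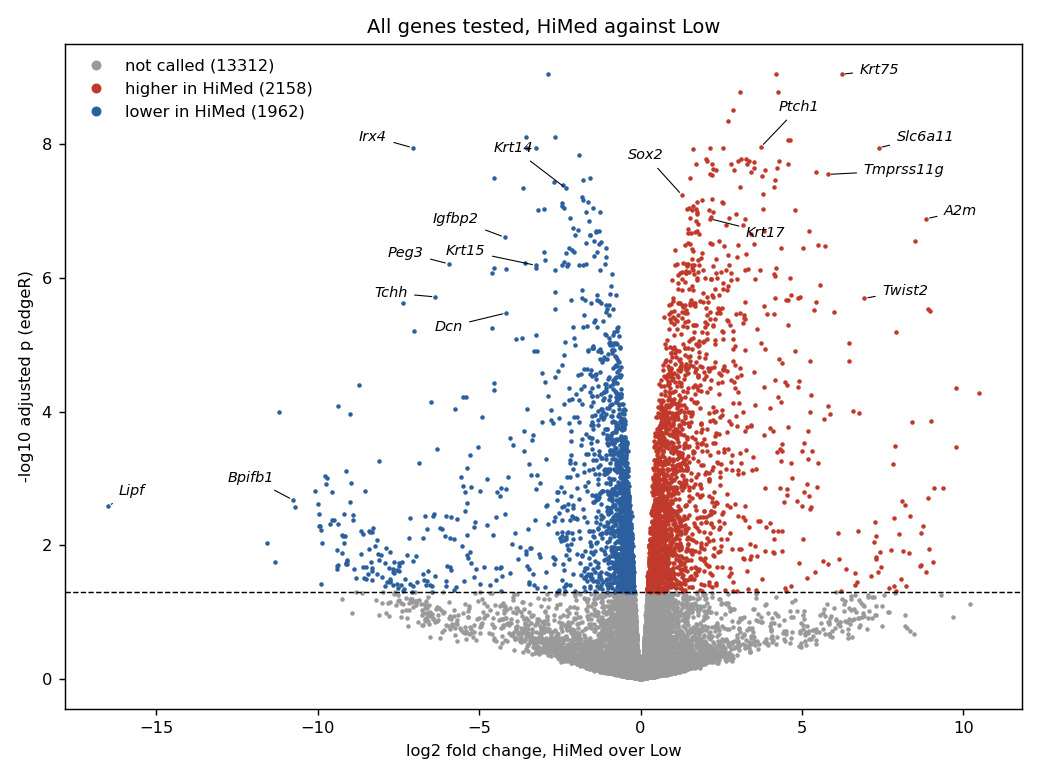
Log2 fold change of HiMed over Low against -log10 of the adjusted p for all 17432 genes tested, with called genes in red (2158 higher in HiMed) and blue (1962 lower in HiMed), the remainder in grey, and the dashed line at an adjusted p of 0.05. A2m, Slc6a11 and Twist2 stand at the far right of the genes named, and Lipf, with 0 counts in HiMed, at the far left.

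The genes with the largest rises in HiMed included a protease inhibitor, a neurotransmitter carrier, a keratin and the Wnt inhibitor gene Wif1. A2m, which encodes the secreted protease inhibitor alpha-2-macroglobulin, had 1092, 656 and 787 CPM in HiMed, against 2.21, 1.49 and 1.69 CPM in Low. Slc6a11, which encodes a carrier for the transmitter GABA, had 167, 101 and 124 CPM in HiMed, against 0.636, 0.686 and 1.01 CPM in Low. Krt75, a keratin known from the companion layer of hair follicles, had 1911, 1642 and 1914 CPM in HiMed, against 21.3, 20.6 and 30.6 CPM in Low. All 3 genes were high in every HiMed library and low in every Low library. The log2 fold changes were 8.85 (SE 0.57, adjusted p = 1.3e-07) for A2m, 7.38 (SE 0.34, adjusted p = 1.1e-08) for Slc6a11 and 6.23 (SE 0.20, adjusted p = 8.9e-10) for Krt75.

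Further genes of this kind were lower in absolute level. Abo, which encodes the glycosyltransferase of the ABO blood group, averaged 11.6 ± 0.988 CPM in HiMed and 0.0403 ± 0.0699 CPM in Low (log2 fold change 8.51, SE 0.59, adjusted p = 2.7e-07). The transcription factor gene Twist2 averaged 33.1 ± 4.35 CPM in HiMed and 0.271 ± 0.287 CPM in Low. P2ry14, a receptor for UDP-sugars, averaged 18.1 ± 6.73 CPM in HiMed and 0.188 ± 0.267 CPM in Low. S1pr1, a receptor for sphingosine 1-phosphate, averaged 17.6 ± 2.03 CPM in HiMed and 0.248 ± 0.219 CPM in Low. Tmprss11g, a membrane serine protease, reached 201 ± 12.3 CPM in HiMed and 3.57 ± 1.40 CPM in Low (log2 fold change 5.80, SE 0.31, adjusted p = 2.8e-08). Nos1, the neuronal nitric oxide synthase, reached 80.1 ± 13.8 CPM in HiMed and 1.50 ± 0.987 CPM in Low (log2 fold change 5.72, SE 0.41, adjusted p = 3.4e-07). The remaining genes among the 15 with the largest called rises at 10 CPM or more in HiMed were Cnksr2, Brinp1, Wif1, Sult1d1, Heyl and Abca13, with log2 fold changes between 5.27 for Abca13 and 5.57 for Cnksr2.

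The genes with the largest falls were products of secretory glands, genes of hair-type keratinization and several transcription factors. Lipf, which encodes the lipase secreted by von Ebner's glands, had 0 counts in all 3 HiMed libraries and 64.3, 433 and 320.1 CPM in the Low libraries. Set against 3 counts over the bin, it was at least 10936-fold lower in HiMed. Bpifb1, a secreted protein of airway and oral glands, had 0, 0.547 and 0.145 CPM in HiMed, against 92.8, 596 and 429 CPM in Low. Salivary amylase, Amy1, had 0, 1.31 and 0.688 CPM in HiMed, against 9.35, 135 and 58.6 CPM in Low. In each of these 3 gland genes Low replicate 1 stood well below the other 2 Low libraries, so the Low libraries differed among themselves. Sbpl, Prb1 and Dcpp1, also secretory, averaged 231, 32.3 and 59.1 CPM in Low, and each was under 1 CPM in HiMed (0.538, 0.0638 and 0.772 CPM). The calls for Lipf, Bpifb1, Amy1, Prb1 and Sbpl were lost with limma voom, at adjusted p between 0.113 and 0.318, and that for Dcpp1 with DESeq2, at 0.063.

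Outside the gland genes, the largest falls included homeobox genes and structural proteins. Irx4, a homeobox transcription factor gene, had 0.514, 0.246 and 0.453 CPM in HiMed, against 54.4, 56.7 and 54.00 CPM in Low (log2 fold change -7.05, SE 0.25, adjusted p = 1.1e-08). Lhx6, another homeobox gene, had 0, 0.547 and 0.217 CPM in HiMed, against 37.8, 45.8 and 36.9 CPM in Low (log2 fold change -7.35, SE 0.65, adjusted p = 2.3e-06). Both genes were close to absent in every HiMed library and showed little spread in Low. Tchh encodes trichohyalin, a structural protein of the inner root sheath and of filiform papillae, and averaged 26.4 ± 3.37 CPM in HiMed and 2162 ± 837 CPM in Low (log2 fold change -6.36, SE 0.55, adjusted p = 1.9e-06). Eln, which encodes elastin, averaged 0.767 ± 0.699 CPM in HiMed and 92.02 ± 22.3 CPM in Low (log2 fold change -7.01, SE 0.69, adjusted p = 6.3e-06). Enpep, a membrane aminopeptidase, averaged 0.0912 ± 0.158 CPM in HiMed and 22.3 ± 8.43 CPM in Low, and the clotting factor gene F5 0.263 ± 0.305 CPM in HiMed and 25.3 ± 14.7 CPM in Low. The chemokine gene Ccl6 averaged 0.0182 ± 0.0316 CPM in HiMed and 12.1 ± 3.93 CPM in Low.

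**Figure D2:**
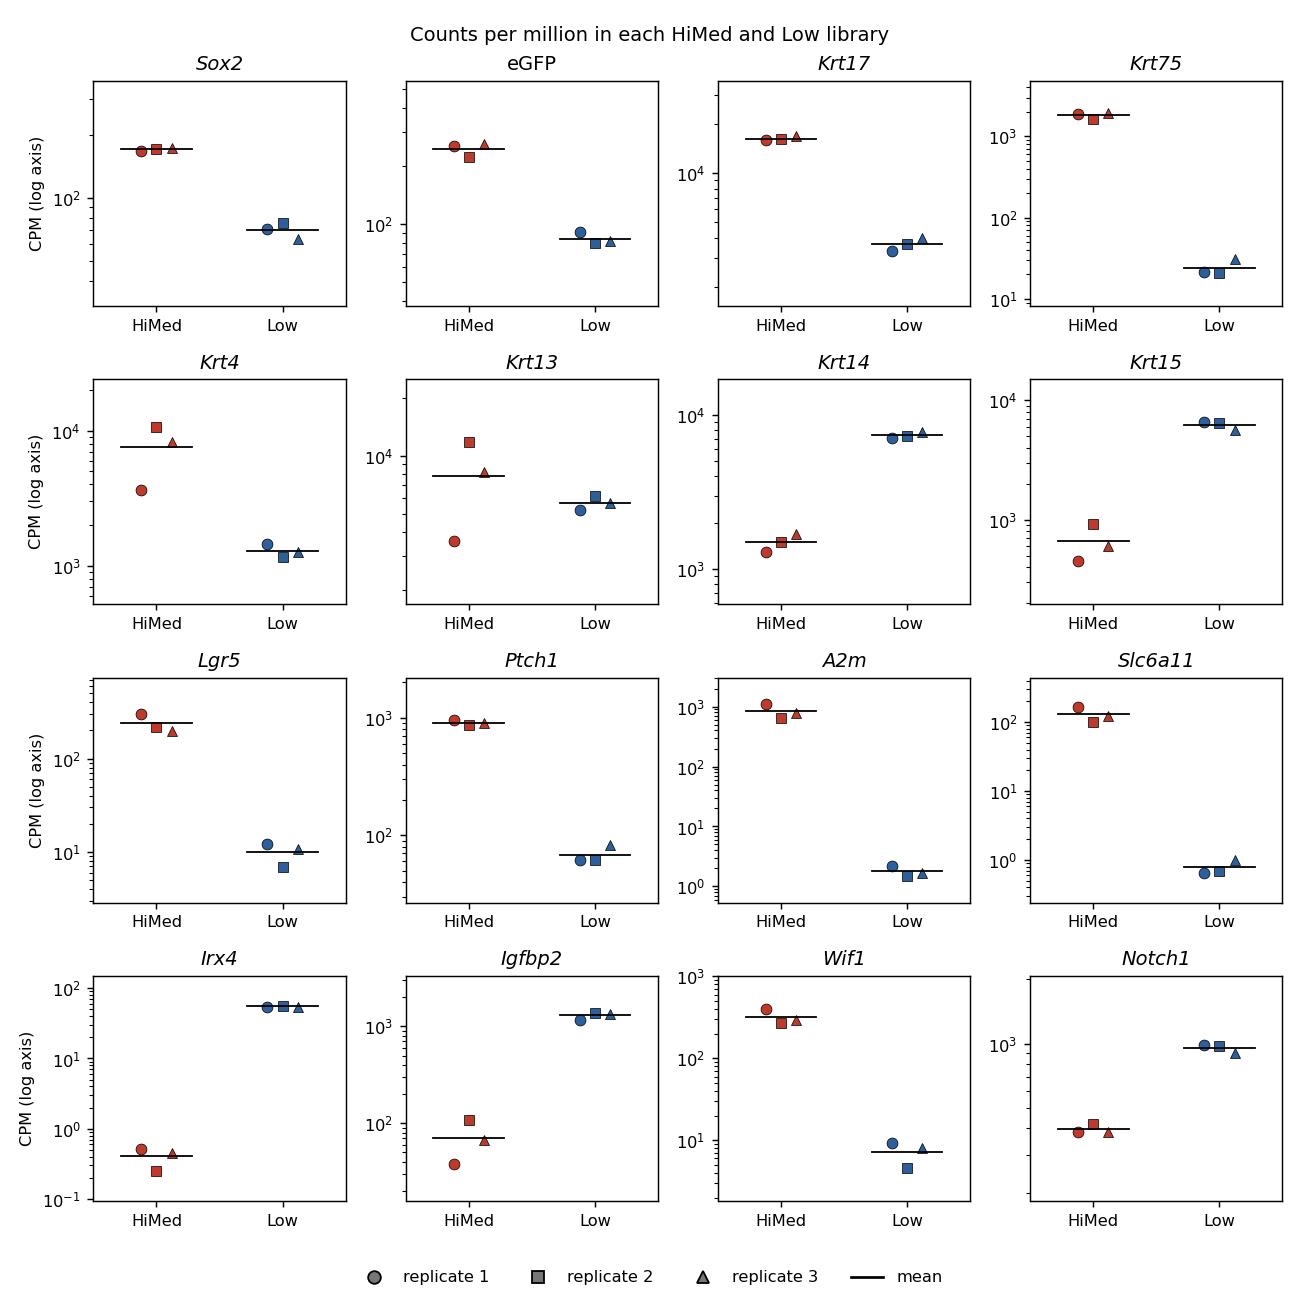
CPM of 16 genes in each of the 3 HiMed (red, left) and 3 Low (blue, right) libraries on log axes, with the replicate number as marker shape and the mean as a line. The bins are apart for every gene shown except Krt13, in which HiMed replicate 1 lies below all Low libraries.

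Keratins, the filament proteins of epithelial cells, changed in kind more than in total. Summed over all keratins, transcript abundances per length (TPM, which allow genes of different length to be compared) came to 44900, 63230 and 58970 in the HiMed libraries and 45090, 49070 and 49840 in the Low libraries, so the bins overlapped. Krt17 made up 34.5% of keratin TPM in HiMed and 8.3% in Low. Krt14 made up 2.9% in HiMed and 15.4% in Low, and Krt15 made up 1.5% in HiMed and 15.6% in Low. Of 54 keratin symbols, 37 were tested, of which 11 rose, 11 fell and 15 were not called.

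The basal keratins split. Krt17, a keratin of basal and activated keratinocytes, had 15798, 15994 and 16789.5 CPM in HiMed, against 3321, 3638 and 3992 CPM in Low (log2 fold change 2.15, SE 0.14, adjusted p = 1.3e-07). Krt14, the partner of Krt5 in basal cells, had 1297, 1502 and 1678 CPM in HiMed, against 7119, 7323 and 7749 CPM in Low (log2 fold change -2.31, SE 0.13, adjusted p = 4.5e-08). Krt15, a keratin of quiescent basal cells, had 450.2, 926 and 601 CPM in HiMed, against 6528, 6473 and 5678 CPM in Low (log2 fold change -3.24, SE 0.25, adjusted p = 6.5e-07). Krt17 was higher and Krt14 and Krt15 lower in every HiMed library, with no overlap. Krt5 fell less, to 7474 ± 150.3 CPM in HiMed and 13833 ± 128 CPM in Low (log2 fold change -0.89, SE 0.12, adjusted p = 1.4e-04). Trp63, the master transcription factor gene of stratified epithelium, averaged 920.0 ± 30.8 CPM in HiMed and 869 ± 9.25 CPM in Low and was not called (log2 fold change 0.08, SE 0.14, adjusted p = 0.74). Of the 11 basal keratins and basal cell genes tested, 2 rose (Krt17 and the laminin receptor Bcam) and 8 fell, with a median log2 fold change of -0.80.

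Genes that tie basal cells to the basement membrane fell with Krt14 and Krt15. Of 23 hemidesmosome and basement membrane genes tested, 18 fell and 3 rose, with a median of -0.53; on log2(TPM + 1) and log2(TPM + 0.1) values 10 and 8 fell. Frem2, a protein of the epithelial basement membrane, averaged 22.5 ± 5.15 CPM in HiMed and 121 ± 9.10 CPM in Low (log2 fold change -2.43, SE 0.15, adjusted p = 7.4e-08). Dst, whose epithelial form anchors keratin to hemidesmosomes, averaged 789 ± 68.01 CPM in HiMed and 1875 ± 28.9 CPM in Low (log2 fold change -1.25, SE 0.08, adjusted p = 1.0e-07). Col17a1, the collagen of hemidesmosomes, averaged 2066 ± 167 CPM in HiMed and 3608 ± 147 CPM in Low. The 3 that rose were Lamb1, a laminin chain (40.8 ± 6.09 CPM in HiMed and 13.7 ± 4.49 CPM in Low), Hspg2, which encodes perlecan (265 ± 20.8 CPM in HiMed and 151 ± 11.3 CPM in Low), and Itgb1, the shared integrin beta chain (485 ± 57.1 CPM in HiMed and 295 ± 7.37 CPM in Low).

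**Figure D3:**
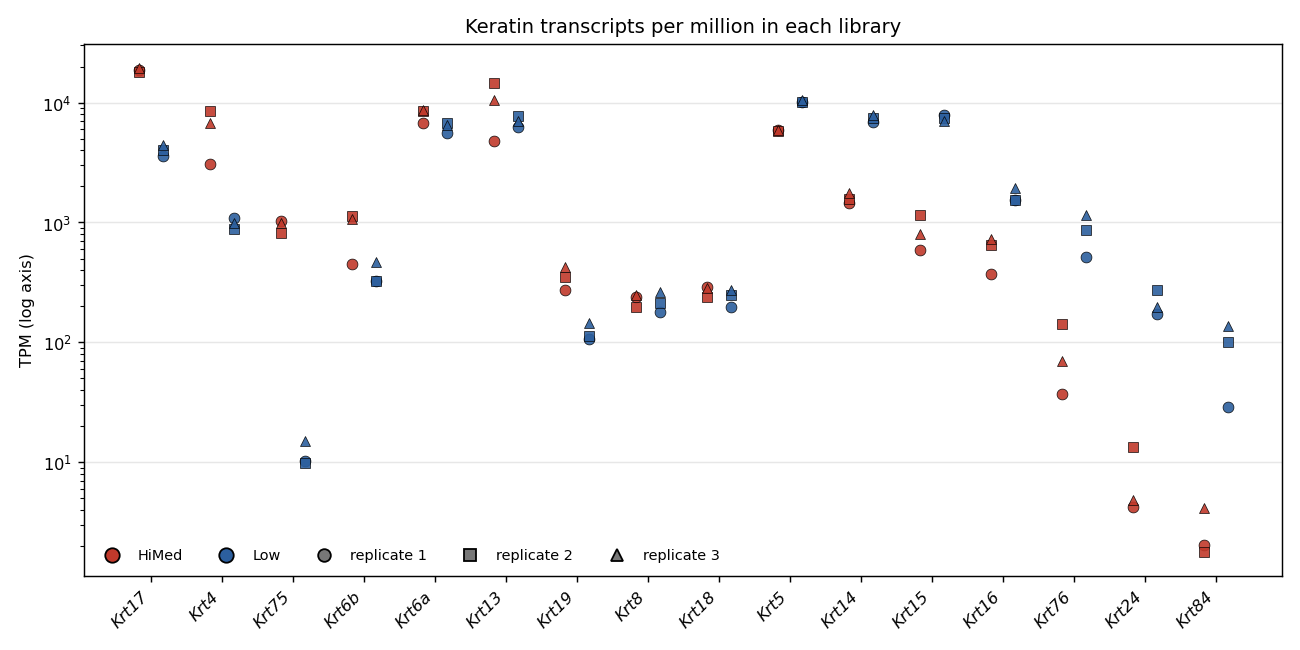
TPM of 16 keratins in each HiMed (red, left of each pair) and Low (blue, right) library on a log axis, with the replicate number as marker shape. Krt17, Krt4, Krt75 and Krt19 are higher and Krt5, Krt14, Krt15, Krt16, Krt76, Krt24 and Krt84 lower in all 3 HiMed libraries, and the Krt6b, Krt13, Krt8 and Krt18 values overlap between the bins.

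Of the keratinocyte genes of the wet, non-cornified oral lining, a majority rose. Of 28 suprabasal genes of wet epithelium tested, 16 rose, 1 fell and 11 were not called, with a median of 0.78, and 18 rose and 1 fell without HiMed replicate 1. Krt4, the type II keratin of suprabasal lining cells, had 3639.8, 10727 and 8259.8 CPM in HiMed, against 1439, 1160.4 and 1275 CPM in Low (log2 fold change 2.55, SE 0.29, adjusted p = 2.4e-05). Its partner Krt13 had 3585, 11744 and 8225 CPM in HiMed, against 5194, 6191 and 5690.2 CPM in Low and was not called (log2 fold change 0.46, SE 0.31, adjusted p = 0.33). HiMed replicate 1 was the lowest HiMed library for both keratins, and without it Krt13 was called (log2 fold change 0.81, adjusted p = 0.00962). Sprr3, a small proline-rich protein of the lining, averaged 66.1 ± 39.2 CPM in HiMed and 2.03 ± 1.28 CPM in Low (log2 fold change 4.99, SE 0.79, adjusted p = 3.9e-04). Mal, a membrane raft protein, averaged 128 ± 58.6 CPM in HiMed and 6.57 ± 2.11 CPM in Low (log2 fold change 4.28, SE 0.47, adjusted p = 1.7e-05). Muc4, a membrane mucin, averaged 7.41 ± 4.97 CPM in HiMed and 0.514 ± 0.0837 CPM in Low. The fall was in Krt16, a keratin of activated keratinocytes (513 ± 171 CPM in HiMed and 1546 ± 211 CPM in Low; log2 fold change -1.59, SE 0.24, adjusted p = 2.4e-04).

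Cornified envelope genes rose in part. Of 25 tested, 9 rose and 3 fell, with a median of 1.09. Sprr1a, a cross-linked envelope precursor, averaged 1464 ± 473 CPM in HiMed and 172 ± 33.8 CPM in Low (log2 fold change 3.09, SE 0.29, adjusted p = 3.3e-06). Its relative Sprr2a1 averaged 42.3 ± 14.4 CPM in HiMed and 1.74 ± 1.15 CPM in Low (log2 fold change 4.56, SE 0.44, adjusted p = 5.1e-06). Ivl (involucrin) averaged 19.9 ± 7.05 CPM in HiMed and 4.00 ± 1.78 CPM in Low and Cnfn (cornifelin) 144 ± 75.5 CPM in HiMed and 31.2 ± 9.91 CPM in Low. Flg (filaggrin) and Tchh fell, and Flg averaged 10.3 ± 3.24 CPM in HiMed and 169 ± 90.5 CPM in Low (log2 fold change -4.04, SE 0.61, adjusted p = 2.5e-04). The sum over the list was 3150 to 6230 CPM in HiMed and 3000 to 5370 CPM in Low, and the bins overlapped.

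Most keratins of filiform papillae and hair went the other way, while Krt75 rose. Of 11 tested, 7 fell, 1 rose and 3 were not called, and the median was -3.41. The list, with Krt75 on it, summed to 2220 to 2530 CPM in HiMed and 1650 to 2870 CPM in Low, and the bins overlapped. Krt84 had 2.97, 0.656 and 6.23 CPM in HiMed, against 47.4, 162 and 218 CPM in Low (log2 fold change -5.39, SE 0.92, adjusted p = 7.1e-04). Krt35 had 0, 0.273 and 0.0905 CPM in HiMed, against 6.14, 12.3 and 11.9 CPM in Low (log2 fold change -6.40, SE 1.36, adjusted p = 0.0034). Krt36 had 0, 0.465 and 1.68 CPM in HiMed, against 21.97, 75.8 and 81.6 CPM in Low, and its call (adjusted p = 3.6e-04) was lost with limma voom (adjusted p = 0.0685). Krt24, a keratin of differentiated keratinocytes, averaged 7.97 ± 5.66 CPM in HiMed and 239 ± 57.4 CPM in Low (log2 fold change -4.93, SE 0.68, adjusted p = 1.2e-04). Low replicate 1 was the lowest Low library for Krt84, Krt35, Krt36, Krt24 and Tchh, as it was for the gland genes.

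Markers of mature taste cells did not move as a block. Type I cells wrap the other cells of the bud as glia do. All 6 of their markers tested were called, 3 higher and 3 lower. Only 1 was called lower without HiMed replicate 1 or without Low replicate 2, and only 1 higher with limma voom. Slc6a11 rose, as given above. Slc1a3, which encodes a glutamate carrier, had 0.0234, 1.81 and 1.68 CPM in HiMed, against 54.1, 48.5 and 46.6 CPM in Low (log2 fold change -5.40, SE 0.68, adjusted p = 6.0e-05). Kcnj1, a potassium channel gene, averaged 2.17 ± 0.809 CPM in HiMed and 0.0519 ± 0.0899 CPM in Low (log2 fold change 5.19, SE 0.85, adjusted p = 5.2e-04), a call lost with limma voom (adjusted p = 0.252). Entpd2, the ecto-ATPase that defines type I cells, averaged 12.2 ± 1.23 CPM in HiMed and 19.9 ± 3.68 CPM in Low (log2 fold change -0.70, SE 0.19, adjusted p = 0.017). The Entpd2 call was lost without HiMed replicate 1 (adjusted p = 0.0651), without Low replicate 2 (0.0833), with limma voom (0.174) and on log2(TPM + 1) and log2(TPM + 0.1) values (0.134 and 0.117).

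Type II cells detect sweet, umami and bitter substances. Of 19 markers tested, 1 rose, 3 fell and 15 were not called (2 rose without Low replicate 3, with the replicate block, which pairs libraries by number, and under 6 other alternatives), and the list summed to 1410 to 1680 CPM in HiMed and 1370 to 1700 CPM in Low. The member that rose was Plcb2, the phospholipase of the taste cascade, with 241 ± 45.6 CPM in HiMed and 81.1 ± 32.8 CPM in Low (log2 fold change 1.57, SE 0.38, adjusted p = 0.0082). Itpr3, the calcium release channel of that cascade, averaged 490.2 ± 14.7 CPM in HiMed and 682 ± 41.9 CPM in Low (log2 fold change -0.48, SE 0.07, adjusted p = 2.4e-04). The bitter receptor gene Tas2r105 averaged 0.227 ± 0.209 CPM in HiMed and 3.65 ± 1.02 CPM in Low (log2 fold change -4.00, SE 0.95, adjusted p = 0.0097). Trpm5, the cation channel that ends the cascade, averaged 55.5 ± 12.1 CPM in HiMed and 62.9 ± 24.9 CPM in Low and was not called (log2 fold change -0.18, SE 0.35, adjusted p = 0.79).

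Type III cells detect sour substances and form synapses. Of 15 markers, none rose and 2 fell, Car4 and Pkd1l3, and 1 rose with the replicate block, without Low replicate 3 and with no filter on low counts. None fell without HiMed replicate 3, Low replicate 2 or Low replicate 3. Car4, a membrane carbonic anhydrase, averaged 0.483 ± 0.657 CPM in HiMed and 3.70 ± 0.527 CPM in Low (log2 fold change -2.95, SE 0.98, adjusted p = 0.043), a call lost without HiMed replicate 3 (adjusted p = 0.14) and without Low replicate 1, 2 or 3 (0.0977, 0.0728 and 0.0989) and in the fit of the 6 libraries alone (0.0895). Pkd1l3 averaged 78.3 ± 2.96 CPM in HiMed and 152 ± 37.8 CPM in Low (log2 fold change -0.95, SE 0.29, adjusted p = 0.031), a call lost without HiMed replicate 1, 2 or 3 (0.0785, 0.082 and 0.0734), without Low replicate 2 or 3 (0.0675 and 0.129) and on log2(TPM + 1) and log2(TPM + 0.1) values (0.0892 and 0.103).

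Keratins of taste buds and related genes rose in part. Of 13 tested, 6 rose and 1 fell, with a median of 0.60. Those that rose included Hes6, a transcription factor gene given below. The fall held without HiMed replicate 3, but none fell without any other of the 6 libraries, with library size only, with no filter on low counts or on TPM values. Krt20 averaged 40.7 ± 9.32 CPM in HiMed and 6.89 ± 1.66 CPM in Low (log2 fold change 2.56, SE 0.29, adjusted p = 2.3e-05). Krt19 had 183, 228 and 273 CPM in HiMed, against 70.1, 78.1 and 97.4 CPM in Low (log2 fold change 1.48, SE 0.24, adjusted p = 4.6e-04). Krt8, the keratin most used to mark taste bud cells, had 259, 226 and 280.0 CPM in HiMed, against 218, 251 and 309 CPM in Low, and the bins overlapped (log2 fold change -0.02, SE 0.23, adjusted p = 0.96). The claudin gene Cldn7 averaged 39.1 ± 8.29 CPM in HiMed and 15.9 ± 4.58 CPM in Low (log2 fold change 1.30, SE 0.28, adjusted p = 0.0042).

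Transcription factors of the taste lineage rose in part. Of 17 tested, 9 rose and 1 fell, with a median of 0.74. Without HiMed replicate 3, 7 rose and 2 fell with a median of 0.44, and without Low replicate 2, 7 rose and 1 fell with a median of 0.45. With DESeq2, limma voom or TPM values 2 fell, and the median was 0.41 on log2(TPM + 1) and 0.46 on log2(TPM + 0.1) values. Etv1, an ETS factor, had 108, 76.2 and 80.3 CPM in HiMed, against 8.78, 7.50 and 10.4 CPM in Low (log2 fold change 3.30, SE 0.17, adjusted p = 1.9e-08). Hes6, a helix-loop-helix factor of neuronal and taste cell differentiation, had 227, 184 and 193 CPM in HiMed, against 31.3, 35.7 and 36.2 CPM in Low (log2 fold change 2.55, SE 0.12, adjusted p = 1.1e-08). The homeobox gene Six4 averaged 45.7 ± 7.16 CPM in HiMed and 9.26 ± 3.31 CPM in Low (log2 fold change 2.30, SE 0.22, adjusted p = 4.0e-06). In each of these 3 genes every HiMed library lay above every Low library. The fall was in Foxa1, a forkhead factor, with 70.5 ± 4.02 CPM in HiMed and 212 ± 10.8 CPM in Low (log2 fold change -1.59, SE 0.10, adjusted p = 1.4e-07), while its relative Foxa2 averaged 73.2 ± 2.99 CPM in HiMed and 19.1 ± 3.75 CPM in Low.

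Stem and progenitor markers divided. Of 15 tested, 5 rose and 7 fell. Lgr5, a receptor for R-spondins that marks taste stem cells, had 304, 217 and 197 CPM in HiMed, against 12.3, 6.94 and 10.8 CPM in Low (log2 fold change 4.56, SE 0.23, adjusted p = 1.9e-08). Its relative Lgr6 had 356, 249 and 306 CPM in HiMed, against 60.5, 63.6 and 78.99 CPM in Low (log2 fold change 2.17, SE 0.15, adjusted p = 3.0e-07). Lgr4, the broadly expressed member of the family, had 66.00, 76.9 and 71.9 CPM in HiMed, against 199.9, 206 and 195 CPM in Low (log2 fold change -1.48, SE 0.09, adjusted p = 9.0e-08). Lgr5 and Lgr6 were higher and Lgr4 lower in every HiMed library. Ngfr, the p75 neurotrophin receptor, averaged 48.1 ± 1.39 CPM in HiMed and 22.7 ± 4.23 CPM in Low (log2 fold change 1.08, SE 0.16, adjusted p = 1.8e-04).

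Targets of Hedgehog signalling were higher in HiMed, and coreceptors for the ligand lower. Hedgehog ligands bind the receptor Patched, which frees Smoothened to activate Gli factors, and Patched and Gli1 are themselves switched on by the signal. Of 17 genes tested, 7 rose and 4 fell, with a median of 0.49 that was 0.22 without Low replicate 3 and 0.13 on log2(TPM + 1) values. Ptch1 had 957, 870.3 and 900.2 CPM in HiMed, against 61.5, 61.4 and 82.7 CPM in Low (log2 fold change 3.73, SE 0.17, adjusted p = 1.1e-08). Gli1 had 306, 276 and 254 CPM in HiMed, against 31.6, 32.7 and 33.6 CPM in Low (log2 fold change 3.09, SE 0.17, adjusted p = 4.3e-08). The ligand gene Shh, made by taste precursor cells, had 15.1, 2.30 and 9.56 CPM in HiMed, against 0.212, 0 and 0.208 CPM in Low; its rise (adjusted p = 8.4e-05) was lost with limma voom (adjusted p = 0.0621). The coreceptor gene Gas1 averaged 22.8 ± 7.47 CPM in HiMed and 143 ± 13.6 CPM in Low (log2 fold change -2.65, SE 0.23, adjusted p = 1.6e-06). Boc, another coreceptor gene, averaged 41.6 ± 3.14 CPM in HiMed and 107 ± 6.99 CPM in Low (log2 fold change -1.36, SE 0.12, adjusted p = 2.1e-06). Disp1, which releases the ligand from the cells that make it, averaged 10.8 ± 0.990 CPM in HiMed and 21.1 ± 2.55 CPM in Low.

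**Figure D4:**
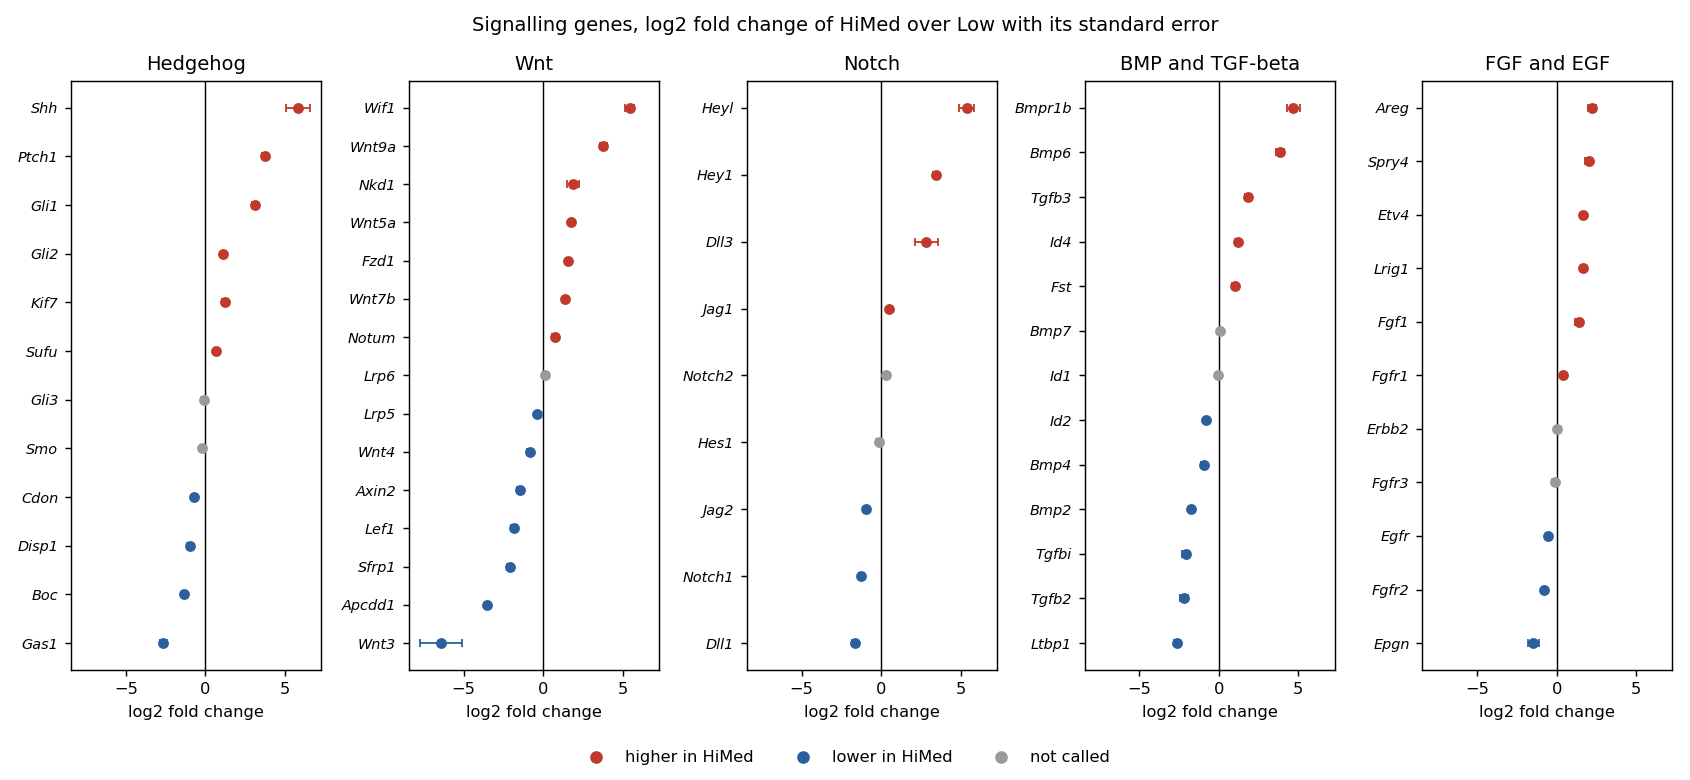
Log2 fold change of HiMed over Low with its standard error for signalling genes of 5 pathway groups, in red where called higher, blue where called lower and grey where not called. Shh, Ptch1 and Gli1 lie far right and Gas1 far left among the Hedgehog genes, and Wif1 and Apcdd1, both Wnt inhibitors, lie on opposite sides.

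Wnt ligands, receptors and feedback genes each split. Of 12 ligand genes tested, 4 rose and 5 fell. Wnt9a averaged 65.9 ± 2.89 CPM in HiMed and 4.74 ± 1.04 CPM in Low (log2 fold change 3.78, SE 0.20, adjusted p = 2.9e-08). Wnt5a, known for signalling without beta-catenin, averaged 113 ± 10.3 CPM in HiMed and 33.6 ± 4.68 CPM in Low (log2 fold change 1.75, SE 0.11, adjusted p = 1.1e-07). Wnt7b averaged 162 ± 2.46 CPM in HiMed and 61.98 ± 6.17 CPM in Low (log2 fold change 1.38, SE 0.12, adjusted p = 2.6e-06). Among those that fell, Wnt10a averaged 49.5 ± 4.72 CPM in HiMed and 108 ± 5.00 CPM in Low (log2 fold change -1.12, SE 0.14, adjusted p = 6.2e-05). Wnt4 averaged 183 ± 32.1 CPM in HiMed and 330.2 ± 31.9 CPM in Low (log2 fold change -0.85, SE 0.16, adjusted p = 0.0016). Wnt10b and Wnt3, with 4.34 and 4.55 CPM in Low, were at 0.0908 and 0.0547 CPM in HiMed. Of 15 receptor and coreceptor genes, 5 rose and 3 fell. The receptor gene Fzd1 averaged 337 ± 4.97 CPM in HiMed and 115 ± 14.3 CPM in Low (log2 fold change 1.55, SE 0.11, adjusted p = 2.1e-07). Ror1, a tyrosine kinase-like receptor for Wnt5a, averaged 0.405 ± 0.390 CPM in HiMed and 7.28 ± 1.82 CPM in Low (log2 fold change -4.12, SE 0.73, adjusted p = 9.5e-04).

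Feedback genes and inhibitors of the Wnt pathway were divided evenly. Of 17 tested, 7 rose and 7 fell. Wif1, a secreted protein that binds Wnt ligands, had 403, 269 and 296 CPM in HiMed, against 9.25, 4.56 and 8.07 CPM in Low (log2 fold change 5.45, SE 0.29, adjusted p = 2.6e-08). Apcdd1, a membrane inhibitor of Wnt, had 31.5, 44.6 and 42.8 CPM in HiMed, against 395, 501 and 459.6 CPM in Low (log2 fold change -3.51, SE 0.16, adjusted p = 1.1e-08). These inhibitors moved in opposite directions with no overlap of libraries. Nkd1, a feedback inhibitor, averaged 12.6 ± 2.81 CPM in HiMed and 3.42 ± 2.18 CPM in Low (log2 fold change 1.87, SE 0.35, adjusted p = 0.0014). Axin2, the most used readout of Wnt activity, averaged 19.6 ± 2.66 CPM in HiMed and 54.7 ± 9.48 CPM in Low (log2 fold change -1.48, SE 0.15, adjusted p = 1.1e-05). Lef1, a transcription factor of the pathway, averaged 34.97 ± 11.3 CPM in HiMed and 126 ± 13.3 CPM in Low (log2 fold change -1.84, SE 0.21, adjusted p = 2.8e-05). Sfrp1, a secreted antagonist, averaged 36.1 ± 3.81 CPM in HiMed and 156 ± 7.76 CPM in Low (log2 fold change -2.12, SE 0.15, adjusted p = 3.7e-07).

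Notch receptors and ligands changed in both directions, and the called Notch effectors rose. Of 13 receptor, ligand and modifier genes tested, 3 rose and 5 fell; between 1 and 4 rose under the alternatives, with 1 without Low replicate 1. Notch1 had 383, 419.7 and 386 CPM in HiMed, against 989, 972 and 907 CPM in Low (log2 fold change -1.27, SE 0.10, adjusted p = 7.6e-07). The ligand gene Dll1 averaged 25.9 ± 3.88 CPM in HiMed and 81.6 ± 3.27 CPM in Low (log2 fold change -1.66, SE 0.16, adjusted p = 5.2e-06) and Jag2 252 ± 17.3 CPM in HiMed and 478 ± 10.2 CPM in Low (log2 fold change -0.92, SE 0.18, adjusted p = 0.0016). Jag1, also a ligand gene, averaged 275 ± 16.1 CPM in HiMed and 193 ± 11.2 CPM in Low (log2 fold change 0.51, SE 0.09, adjusted p = 0.0010). Of 8 effector genes, Heyl (15.1 ± 5.29 CPM in HiMed and 0.333 ± 0.336 CPM in Low; log2 fold change 5.38, SE 0.49, adjusted p = 3.0e-06) and Hey1 (69.2 ± 3.72 CPM in HiMed and 6.46 ± 1.50 CPM in Low; log2 fold change 3.44, SE 0.18, adjusted p = 2.6e-08) rose and none fell.

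BMP and TGF-beta genes changed in both directions. Of 32 tested, 8 rose and 10 fell. The ligand gene Bmp6 averaged 75.2 ± 7.22 CPM in HiMed and 5.31 ± 1.79 CPM in Low (log2 fold change 3.83, SE 0.26, adjusted p = 2.0e-07). The receptor gene Bmpr1b averaged 14.4 ± 1.49 CPM in HiMed and 0.550 ± 0.333 CPM in Low (log2 fold change 4.68, SE 0.40, adjusted p = 1.8e-06). Tgfb3 averaged 49.4 ± 4.03 CPM in HiMed and 13.97 ± 3.67 CPM in Low (log2 fold change 1.81, SE 0.19, adjusted p = 8.8e-06), and the fellow ligand gene Tgfb2 5.23 ± 2.02 CPM in HiMed and 24.2 ± 4.85 CPM in Low (log2 fold change -2.20, SE 0.27, adjusted p = 4.4e-05). Ltbp1, which holds latent TGF-beta in the matrix, averaged 31.9 ± 7.85 CPM in HiMed and 198 ± 26.6 CPM in Low (log2 fold change -2.64, SE 0.21, adjusted p = 7.7e-07).

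Genes of FGF and of epidermal growth factor (EGF) signalling changed in part. Of 23 FGF pathway genes tested, 7 rose and 3 fell. Spry4, a feedback inhibitor that FGF signals induce, averaged 11.8 ± 2.51 CPM in HiMed and 2.88 ± 0.429 CPM in Low (log2 fold change 2.03, SE 0.22, adjusted p = 1.4e-05). Etv4, a transcription factor gene they induce, averaged 53.2 ± 5.57 CPM in HiMed and 16.95 ± 1.64 CPM in Low (log2 fold change 1.65, SE 0.15, adjusted p = 2.6e-06). The receptor gene Fgfr2 averaged 274 ± 19.3 CPM in HiMed and 478 ± 20.4 CPM in Low (log2 fold change -0.80, SE 0.09, adjusted p = 2.1e-05). Only 1 FGF gene fell on TPM values and without HiMed replicate 3, Low replicate 1 or Low replicate 2. Of 16 EGF receptor family and ligand genes, 5 rose and 3 fell. The balance depended on the setting: 3 rose and 3 fell with RLE size factors and without HiMed replicate 3 or Low replicate 1, 4 rose and 4 fell in the fit of the 6 libraries alone, and 3 rose and 5 fell with limma voom. With no filter on low counts 6 rose and 5 fell. The ligand gene Areg averaged 45.5 ± 17.3 CPM in HiMed and 9.92 ± 1.85 CPM in Low (log2 fold change 2.20, SE 0.25, adjusted p = 2.2e-05). Lrig1, a receptor inhibitor that marks stem cells in several epithelia, averaged 133 ± 11.8 CPM in HiMed and 42.6 ± 7.10 CPM in Low (log2 fold change 1.64, SE 0.13, adjusted p = 7.7e-07). The receptor gene Egfr averaged 134 ± 15.1 CPM in HiMed and 197 ± 3.47 CPM in Low (log2 fold change -0.56, SE 0.09, adjusted p = 3.2e-04).

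Several genes of insulin-like growth factor (IGF) signalling fell. This group and the retinoid, imprinted and ribosomal protein groups below were chosen after their values were seen. Igfbp2, an IGF binding protein gene, had 37.8, 108 and 66.6 CPM in HiMed, against 1169.9, 1382 and 1358 CPM in Low (log2 fold change -4.20, SE 0.29, adjusted p = 2.5e-07). Igfbp3 had 147, 158 and 164 CPM in HiMed, against 999, 898 and 1062 CPM in Low (log2 fold change -2.66, SE 0.11, adjusted p = 7.6e-09). Pappa, a protease that cleaves IGF binding proteins, averaged 33.8 ± 3.53 CPM in HiMed and 212 ± 25.7 CPM in Low (log2 fold change -2.65, SE 0.24, adjusted p = 2.9e-06). Igfbp4 went the other way, with 192 ± 36.7 CPM in HiMed and 69.5 ± 10.2 CPM in Low (log2 fold change 1.47, SE 0.17, adjusted p = 2.6e-05). Of 13 genes of the group tested, 2 rose and 5 fell, and 4 rose without HiMed replicate 1.

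Imprinted genes, which are expressed from 1 parental copy, fell where called. Of 13 tested, 5 fell and none rose. Peg3 had 1.14, 1.83 and 0.272 CPM in HiMed, against 58.9, 68.5 and 63.2 CPM in Low (log2 fold change -5.94, SE 0.45, adjusted p = 6.1e-07). H19, a noncoding RNA, had 14.4, 38.2 and 19.1 CPM in HiMed, against 185, 173 and 168 CPM in Low (log2 fold change -2.88, SE 0.36, adjusted p = 5.9e-05).

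Transcription factors of stratified and oral epithelium formed contrasting sets. Of 37 tested, 11 rose and 13 fell. Within the Iroquois homeobox family, Irx5 averaged 23.7 ± 2.59 CPM in HiMed and 7.22 ± 2.03 CPM in Low (log2 fold change 1.72, SE 0.19, adjusted p = 2.3e-05), while Irx4 was close to absent from HiMed, as given above. Prdm1, a transcriptional repressor, averaged 38.3 ± 14.3 CPM in HiMed and 11.3 ± 2.97 CPM in Low (log2 fold change 1.75, SE 0.27, adjusted p = 3.0e-04). Elf5, an ETS factor of epithelia, averaged 26.1 ± 3.96 CPM in HiMed and 8.60 ± 2.00 CPM in Low (log2 fold change 1.61, SE 0.22, adjusted p = 1.0e-04). Foxe1, a forkhead factor of foregut epithelium, averaged 508 ± 34.1 CPM in HiMed and 175 ± 8.99 CPM in Low (log2 fold change 1.54, SE 0.10, adjusted p = 1.3e-07). Among those that fell, the bZIP factor gene Maf averaged 20.2 ± 10.3 CPM in HiMed and 184 ± 25.9 CPM in Low (log2 fold change -3.19, SE 0.34, adjusted p = 1.2e-05). Hoxc13, a regulator of hair keratins, averaged 0.580 ± 0.526 CPM in HiMed and 6.76 ± 2.11 CPM in Low (log2 fold change -3.55, SE 0.94, adjusted p = 0.014).

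Among 14 Sox family genes tested, 3 rose and 2 fell, and 5 rose with the replicate block. Beside Sox2, Sox13 averaged 91.4 ± 10.1 CPM in HiMed and 19.4 ± 5.73 CPM in Low (log2 fold change 2.24, SE 0.19, adjusted p = 1.9e-06). Sox5 averaged 12.9 ± 6.24 CPM in HiMed and 1.72 ± 0.548 CPM in Low (log2 fold change 2.88, SE 0.34, adjusted p = 3.6e-05), and Sox6, of the same SoxD group, 26.8 ± 6.34 CPM in HiMed and 69.9 ± 4.77 CPM in Low (log2 fold change -1.39, SE 0.16, adjusted p = 2.8e-05). Sox10, a factor of glia and melanocytes, had 0 counts in HiMed and 6.40, 5.33 and 9.19 CPM in the Low libraries, at least 321-fold lower.

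Tight junction genes rose where called. Of 21 tested, 12 rose and none fell, with a median of 0.56. Ocln (occludin) averaged 40.5 ± 2.05 CPM in HiMed and 11.5 ± 0.539 CPM in Low (log2 fold change 1.81, SE 0.12, adjusted p = 2.2e-07). The claudin gene Cldn23 averaged 15.3 ± 5.09 CPM in HiMed and 4.11 ± 1.05 CPM in Low (log2 fold change 1.90, SE 0.29, adjusted p = 2.9e-04), and Cldn10 33.6 ± 5.60 CPM in HiMed and 12.8 ± 0.721 CPM in Low. Desmosome and cadherin genes divided, with 6 of 24 higher and 5 lower; 2 were lower on TPM values and without Low replicate 2 or 3, and 3 were lower without HiMed replicate 1 or 3. The desmosomal cadherin gene Dsc2 averaged 1182 ± 193 CPM in HiMed and 477 ± 23.98 CPM in Low (log2 fold change 1.31, SE 0.13, adjusted p = 5.3e-06), and Dsg3 1233 ± 40.8 CPM in HiMed and 689 ± 10.6 CPM in Low (log2 fold change 0.84, SE 0.09, adjusted p = 2.1e-05). Dsc3, also a desmosomal cadherin gene, averaged 677 ± 28.7 CPM in HiMed and 1009 ± 19.7 CPM in Low (log2 fold change -0.58, SE 0.09, adjusted p = 2.5e-04). The protocadherin gene Pcdh19 averaged 18.03 ± 1.82 CPM in HiMed and 88.9 ± 8.38 CPM in Low (log2 fold change -2.30, SE 0.17, adjusted p = 4.2e-07).

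Enzymes that detoxify aldehydes and reactive compounds were higher in sum in every HiMed library. The 33 genes tested summed to 9670 to 11300 CPM in HiMed and 4320 to 4380 CPM in Low, 17 rose and 1 fell, and the median was 0.76. None fell without HiMed replicate 1, Low replicate 1 or Low replicate 2, in the fit of the 6 libraries alone or on TPM values, and 2 fell without HiMed replicate 2. Ces1d, a carboxylesterase, had 1273, 1254 and 1207 CPM in HiMed, against 144, 131 and 156 CPM in Low (log2 fold change 3.11, SE 0.15, adjusted p = 1.7e-08). Cyp2f2, a cytochrome P450, had 962, 1304 and 1143 CPM in HiMed, against 231, 279 and 215 CPM in Low (log2 fold change 2.23, SE 0.14, adjusted p = 1.0e-07). Both were several-fold higher in each HiMed library. Aldh1a3, an aldehyde dehydrogenase that makes retinoic acid, averaged 104 ± 47.05 CPM in HiMed and 7.32 ± 3.71 CPM in Low (log2 fold change 3.83, SE 0.47, adjusted p = 4.4e-05).

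Most of the called retinoid genes rose, as Aldh1a3 did. Retinoic acid is made from vitamin A, binds nuclear receptors and is broken down by Cyp26 enzymes. Of 17 genes tested, 8 rose and 2 fell, with a median of 0.76. The receptor gene Rarb averaged 21.3 ± 6.01 CPM in HiMed and 2.25 ± 0.381 CPM in Low (log2 fold change 3.25, SE 0.25, adjusted p = 7.6e-07). The degrading enzyme gene Cyp26a1 averaged 6.56 ± 2.48 CPM in HiMed and 0.203 ± 0.141 CPM in Low (log2 fold change 4.87, SE 0.42, adjusted p = 2.0e-06). The related Cyp26b1 averaged 18.5 ± 1.11 CPM in HiMed and 38.3 ± 8.57 CPM in Low (log2 fold change -1.05, SE 0.20, adjusted p = 0.0016). Crabp1, a retinoic acid binding protein, averaged 15.3 ± 2.23 CPM in HiMed and 62.3 ± 6.43 CPM in Low (log2 fold change -2.02, SE 0.34, adjusted p = 5.9e-04).

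Cholesterol synthesis genes rose by small amounts. Of 22 tested, 15 rose and none fell, with a median of 0.51. Msmo1, an enzyme of the later steps, averaged 88.4 ± 10.4 CPM in HiMed and 43.9 ± 2.75 CPM in Low (log2 fold change 1.01, SE 0.09, adjusted p = 3.8e-06). Cyp51, which demethylates lanosterol, averaged 119 ± 22.7 CPM in HiMed and 63.1 ± 4.76 CPM in Low (log2 fold change 0.92, SE 0.13, adjusted p = 1.2e-04). Sqle, squalene epoxidase, averaged 95.5 ± 17.3 CPM in HiMed and 50.9 ± 7.87 CPM in Low (log2 fold change 0.91, SE 0.13, adjusted p = 2.3e-04). The list summed to 1809, 2465 and 2268 CPM in HiMed and to between 1587 and 1621 CPM in Low, and HiMed replicate 1 was the lowest HiMed library.

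Metallothioneins, small proteins that bind zinc and copper, fell in 3 of the 4 genes tested, and their promoters are shown because the genes lie side by side and the 3 moved together. The sequences below are the 250 bases before each gene's start on the plus strand, from RefSeq on the build GRCm38.p6, which is not the build of the counts. Capitals mark the string TGCNCNC on either strand (GNGNGCA), with matches that may overlap. This string is looser than the core of the metal response element, TGCRCNC with R for A or G. A match is therefore not always such a core.
Mt1 (chr8:94178839-94179088): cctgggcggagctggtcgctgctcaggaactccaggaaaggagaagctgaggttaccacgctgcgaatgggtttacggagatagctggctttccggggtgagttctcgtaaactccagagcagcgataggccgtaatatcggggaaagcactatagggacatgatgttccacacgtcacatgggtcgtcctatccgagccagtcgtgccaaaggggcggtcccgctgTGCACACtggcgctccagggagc
Mt2 (chr8:94172368-94172617): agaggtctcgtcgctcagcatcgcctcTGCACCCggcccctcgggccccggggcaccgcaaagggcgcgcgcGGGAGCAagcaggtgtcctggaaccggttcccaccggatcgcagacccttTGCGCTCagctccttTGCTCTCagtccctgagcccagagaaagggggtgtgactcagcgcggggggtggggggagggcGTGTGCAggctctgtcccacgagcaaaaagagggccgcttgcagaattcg
Mt3 (chr8:94152357-94152606): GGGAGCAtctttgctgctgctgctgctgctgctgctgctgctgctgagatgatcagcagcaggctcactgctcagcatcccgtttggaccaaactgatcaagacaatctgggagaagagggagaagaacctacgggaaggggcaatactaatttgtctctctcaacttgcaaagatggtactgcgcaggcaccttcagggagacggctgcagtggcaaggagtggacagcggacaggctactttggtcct
Mt4 (chr8:94136954-94137203): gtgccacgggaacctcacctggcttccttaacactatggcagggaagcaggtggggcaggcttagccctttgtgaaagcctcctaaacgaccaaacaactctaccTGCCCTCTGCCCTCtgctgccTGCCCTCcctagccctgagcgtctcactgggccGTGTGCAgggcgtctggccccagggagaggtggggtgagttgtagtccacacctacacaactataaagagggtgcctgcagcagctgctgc
The windows of Mt2 and Mt4 held 5 and 4 matches and those of Mt1 and Mt3 1 each. Of 32851 promoter windows of the same length, 44.41% held at least 1 match, 1.28% at least 4 and 0.34% at least 5.

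Mt2 had 78.2, 105 and 75.5 CPM in HiMed, against 709.6, 649 and 683 CPM in Low (log2 fold change -2.98, SE 0.22, adjusted p = 4.1e-07). Mt1 had 75.1, 91.5 and 71.4 CPM in HiMed, against 365, 361 and 357 CPM in Low (log2 fold change -2.19, SE 0.14, adjusted p = 1.3e-07). Mt3, known from brain, had 0, 0.903 and 0.670 CPM in HiMed, against 26.3, 26.1 and 32.2 CPM in Low (log2 fold change -5.75, SE 0.69, adjusted p = 9.3e-05). These 3 genes were lower in every HiMed library, with no overlap. Mt4, a metallothionein of stratified epithelium, had 144, 446 and 238 CPM in HiMed, against 528, 482 and 605 CPM in Low and was not called (log2 fold change -0.96, SE 0.34, adjusted p = 0.054), but it was called with the replicate block (log2 fold change -1.10, adjusted p = 0.00937), with RLE size factors (adjusted p = 0.0491), with limma voom (0.00576), without HiMed replicate 2 (-1.48, 0.00271) and without a filter on low counts (0.00337). HiMed replicate 2 was the highest HiMed library for Mt4. The promoter windows stop at each annotated gene start, so matches beyond it were not counted. Whether the matches had a part in the fold changes was not tested.

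Some signals that keratinocytes send to immune cells rose. Of 24 epithelial chemokines and cytokines tested, 9 rose, 2 fell and 13 were not called, and 4 fell with limma voom. Il33, an alarmin stored in the nucleus, had 516, 524 and 580.1 CPM in HiMed, against 22.1, 25.1 and 35.3 CPM in Low (log2 fold change 4.30, SE 0.21, adjusted p = 1.8e-08). Il1a, another alarmin, averaged 34.9 ± 17.3 CPM in HiMed and 2.90 ± 1.02 CPM in Low (log2 fold change 3.56, SE 0.47, adjusted p = 8.0e-05). The chemokine gene Cxcl3 averaged 37.4 ± 7.71 CPM in HiMed and 6.48 ± 1.27 CPM in Low (log2 fold change 2.53, SE 0.34, adjusted p = 1.1e-04). Cxcl10, which interferon induces, averaged 7.69 ± 2.62 CPM in HiMed and 19.9 ± 5.49 CPM in Low (log2 fold change -1.37, SE 0.34, adjusted p = 0.0092). Csf1, the macrophage growth factor, averaged 8.85 ± 0.845 CPM in HiMed and 18.8 ± 2.95 CPM in Low (log2 fold change -1.09, SE 0.19, adjusted p = 7.3e-04).

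Protease inhibitors of the serpin family rose in 7 of 22 genes tested and fell in 2, while 13 were not called and the median was -0.02. Serpine2, an inhibitor of thrombin and plasminogen activators, had 469, 358 and 382 CPM in HiMed, against 19.8, 19.5 and 23.7 CPM in Low (log2 fold change 4.26, SE 0.15, adjusted p = 1.6e-09). Serpinb1a, an inhibitor of neutrophil elastase, averaged 60.02 ± 24.4 CPM in HiMed and 12.1 ± 1.55 CPM in Low (log2 fold change 2.30, SE 0.25, adjusted p = 1.8e-05). Serpina3n averaged 56.8 ± 18.1 CPM in HiMed and 11.9 ± 1.94 CPM in Low (log2 fold change 2.25, SE 0.31, adjusted p = 1.3e-04). Of 20 antimicrobial and S100 genes, 4 rose and 4 fell; 1 rose without HiMed replicate 3, 2 rose without Low replicate 2 or 3, and 2 fell without HiMed replicate 1 or 2 or Low replicate 1 or 3. Ltf, the iron-binding lactoferrin, averaged 1704 ± 509.6 CPM in HiMed and 356 ± 94.9 CPM in Low (log2 fold change 2.26, SE 0.35, adjusted p = 2.9e-04).

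Carriers of salt and water also rose in part, with 8 of 19 higher and 2 lower. Scnn1b, a subunit of the epithelial sodium channel, averaged 43.8 ± 6.62 CPM in HiMed and 3.12 ± 0.809 CPM in Low (log2 fold change 3.80, SE 0.22, adjusted p = 5.5e-08). Scnn1g, another subunit, averaged 10.1 ± 0.553 CPM in HiMed and 1.57 ± 0.245 CPM in Low (log2 fold change 2.67, SE 0.23, adjusted p = 1.5e-06). Car2, a carbonic anhydrase, averaged 28.6 ± 6.16 CPM in HiMed and 2.08 ± 0.801 CPM in Low (log2 fold change 3.82, SE 0.34, adjusted p = 2.6e-06). The cation channel gene Trpv4 averaged 27.8 ± 2.72 CPM in HiMed and 58.6 ± 3.38 CPM in Low (log2 fold change -1.07, SE 0.13, adjusted p = 4.5e-05).

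Cues and receptors for nerve fibres split evenly, with 9 of 29 higher and 9 lower. Ntrk2, the receptor for the neurotrophin encoded by Bdnf, had 13.1, 18.3 and 15.7 CPM in HiMed, against 174, 189.7 and 181 CPM in Low (log2 fold change -3.53, SE 0.15, adjusted p = 7.6e-09). Bdnf itself, which taste buds use to attract gustatory fibres, had 110.3, 76.99 and 91.8 CPM in HiMed, against 30.6, 28.7 and 29.5 CPM in Low (log2 fold change 1.65, SE 0.15, adjusted p = 2.4e-06). Ligand and receptor thus stood on opposite sides of the comparison, each without overlap. The ephrin receptor gene Ephb2 averaged 144 ± 15.4 CPM in HiMed and 20.6 ± 2.74 CPM in Low (log2 fold change 2.81, SE 0.14, adjusted p = 1.9e-08). The semaphorin gene Sema5a averaged 139 ± 39.2 CPM in HiMed and 20.7 ± 3.57 CPM in Low (log2 fold change 2.75, SE 0.21, adjusted p = 6.4e-07). The guidance cue gene Slit1 averaged 15.02 ± 5.33 CPM in HiMed and 141 ± 22.6 CPM in Low (log2 fold change -3.23, SE 0.25, adjusted p = 7.1e-07), and Robo2, a receptor for Slit proteins, 22.5 ± 0.923 CPM in HiMed and 96.3 ± 10.1 CPM in Low. Of 23 neuronal excitability and synapse genes, 3 rose and 3 fell, shares close to the 12.4% and 11.3% over all genes tested. None fell without HiMed replicate 2 or Low replicate 1, and 1 fell without HiMed replicate 3.

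Few cell division genes of the S phase were called, and those called in later phases fell. Of 28 genes of the S phase tested, 1 rose and 2 fell. None rose without HiMed replicate 1 or 3 or Low replicate 1 or 3, 1 fell without HiMed replicate 1 or 2 or Low replicate 2 or 3, and none fell on TPM values. Of 28 genes of the G2 and M phases, none rose and 7 fell, with a median of -0.29, and 4 fell on TPM values. Mki67, the most used marker of dividing cells, had 335, 328 and 347 CPM in HiMed, against 471, 594 and 518 CPM in Low (log2 fold change -0.65, SE 0.11, adjusted p = 7.9e-04). Ccnb2, a mitotic cyclin, averaged 23.1 ± 2.55 CPM in HiMed and 37.2 ± 2.41 CPM in Low (log2 fold change -0.69, SE 0.12, adjusted p = 6.7e-04). Of 17 cell cycle inhibitors and related genes, 1 rose and 5 fell. With the replicate block 2 rose and 8 fell, with DESeq2 8 fell, and on TPM values 3 fell. Cdkn2b rose, with 32.4 ± 5.28 CPM in HiMed and 12.7 ± 3.41 CPM in Low (log2 fold change 1.35, SE 0.19, adjusted p = 1.5e-04). Gadd45b fell, with 81.8 ± 6.13 CPM in HiMed and 171 ± 2.61 CPM in Low (log2 fold change -1.06, SE 0.08, adjusted p = 3.6e-07).

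Glycolysis genes fell in 7 of 20 and rose in 1, or in 2 without HiMed replicate 1. The lactate exporter gene Slc16a3 averaged 6.47 ± 0.779 CPM in HiMed and 17.7 ± 1.66 CPM in Low (log2 fold change -1.46, SE 0.29, adjusted p = 0.0023). Pfkp, a phosphofructokinase, averaged 96.7 ± 11.7 CPM in HiMed and 171 ± 14.96 CPM in Low (log2 fold change -0.83, SE 0.13, adjusted p = 4.0e-04). The glucose carrier gene Slc2a1 averaged 240.3 ± 21.8 CPM in HiMed and 399.7 ± 42.7 CPM in Low (log2 fold change -0.73, SE 0.09, adjusted p = 6.2e-05). Hk2, a hexokinase, was the gene that rose, with 339 ± 9.26 CPM in HiMed and 239 ± 25.7 CPM in Low (log2 fold change 0.50, SE 0.11, adjusted p = 0.0050). Of 26 nuclear genes of the respiratory chain 2 rose and 5 fell, and the number that fell was between 2 and 7 under the alternatives, with 2 without HiMed replicate 1, HiMed replicate 3, Low replicate 1 or Low replicate 3 and 3 without Low replicate 2, while 1 rose without HiMed replicate 3 or Low replicate 2. Of 13 genes of the mitochondrial genome, 1 rose and none fell, and none rose without HiMed replicate 2 or Low replicate 2.

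Cytosolic ribosomal protein genes fell by small amounts. Of 85 tested, 63 fell and 1 rose (2 without HiMed replicate 1 or 3), with a median of -0.40, and 41 fell without Low replicate 1. Their sum was 38400 to 41600 CPM in HiMed and 50100 to 56900 CPM in Low. Rn18s, the ribosomal RNA of the small subunit, which polyA selection should remove, had 1985, 2797 and 6392 CPM in HiMed, against 9994, 28513 and 5669.6 CPM in Low. Rn18s was called lower in HiMed (log2 fold change -1.98, SE 0.52, adjusted p = 0.0136), although its values overlapped between the bins. The call was lost without HiMed replicate 1 (adjusted p = 0.0542), HiMed replicate 2 (0.0559) or Low replicate 2 (0.0989). The gene was named after its values were seen. Whether carry-over of ribosomal RNA or RNA quality had a part in the ribosomal protein difference was not tested.

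Genes that respond to dissociation fell in part. Of 20 immediate early genes tested, 1 rose (2 with the replicate block), 10 fell and 9 were not called, and 5 fell without Low replicate 1 and 3 and 4 on log2(TPM + 1) and log2(TPM + 0.1) values. The AP-1 factor gene Fosl1 averaged 92.5 ± 2.96 CPM in HiMed and 246 ± 32.4 CPM in Low (log2 fold change -1.41, SE 0.13, adjusted p = 4.3e-06). Socs3, a brake on cytokine signals, averaged 59.1 ± 10.9 CPM in HiMed and 162 ± 13.1 CPM in Low (log2 fold change -1.46, SE 0.15, adjusted p = 1.1e-05). Myc averaged 158 ± 39.1 CPM in HiMed and 311 ± 39.7 CPM in Low (log2 fold change -0.98, SE 0.22, adjusted p = 0.0056). Egr3 was the gene that rose, with 204 ± 66.6 CPM in HiMed and 84.02 ± 18.7 CPM in Low (log2 fold change 1.28, SE 0.29, adjusted p = 0.0052). Their sum was 16400 to 20400 CPM in HiMed and 20700 to 23200 CPM in Low, and its part in other differences was not tested. Of 14 heat shock genes, 1 rose and 2 fell, with 5 lower with the replicate block, 4 with DESeq2, 6 without Low replicate 3 and 1 without Low replicate 2 or on TPM values.

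Interferon response genes changed in 5 of 18, 1 higher and 4 lower, a share close to the 23.6% called over all genes tested. None fell without HiMed replicate 2 or Low replicate 1, and 2 fell without HiMed replicate 1. The median was -0.29, and 0.10 without Low replicate 1. Ifitm3, the gene that rose, averaged 171 ± 19.9 CPM in HiMed and 95.7 ± 26.5 CPM in Low (log2 fold change 0.83, SE 0.18, adjusted p = 0.0039). Of 15 antigen presentation genes, none rose and 1 fell, but 7 rose without Low replicate 1 and 3 with the replicate block. None fell without HiMed replicate 1 or 3 or Low replicate 3, and 2 fell without HiMed replicate 2. The list summed to 1364, 1357 and 1312 CPM in the HiMed libraries and to 1434, 768.3 and 903.8 CPM in the Low libraries, so Low replicate 1 stood apart from the other 2 Low libraries.

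**Figure D5:**
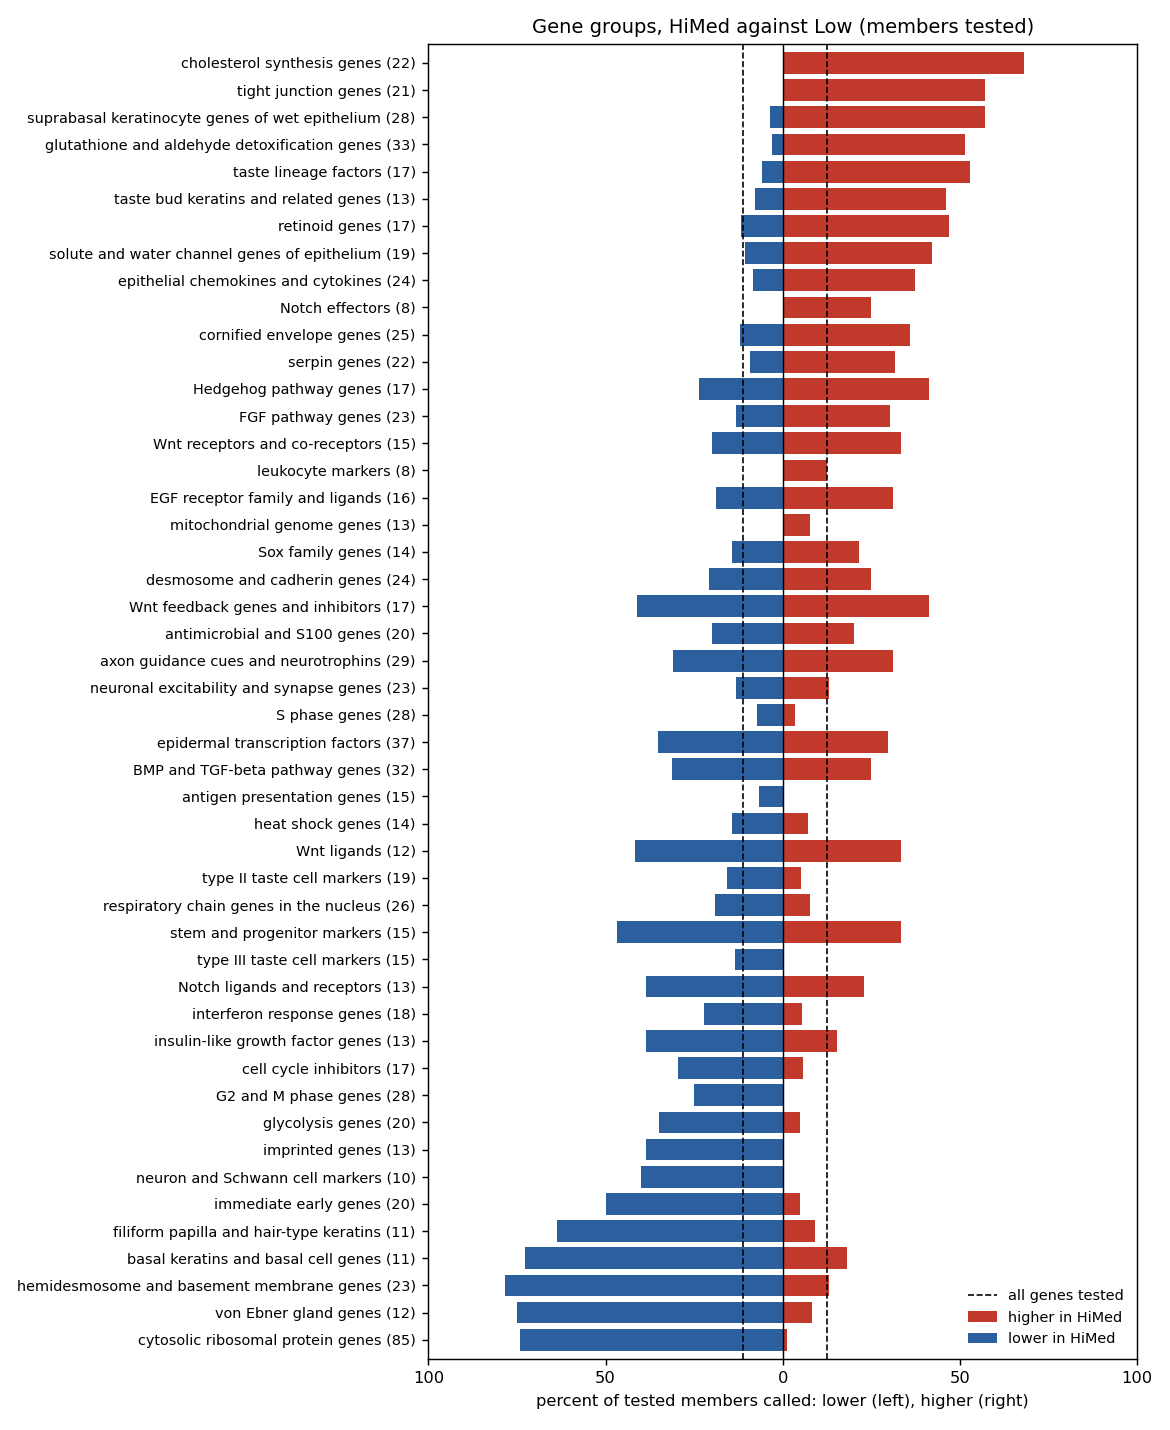
Percent of the tested members of each gene group called higher (red, right) or lower (blue, left) in HiMed, for groups with at least 8 tested members, with dashed lines at the shares over all genes tested (12.4% higher, 11.3% lower). Cholesterol synthesis, tight junction and suprabasal genes stand at the top and ribosomal protein, gland and hemidesmosome genes at the bottom. The groups were chosen with earlier results of these data known, so the distance from the dashed lines is not a test.

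HiMed and Low also differed in markers of cells other than surface keratinocytes. Gland genes were lower in HiMed in 9 of 12 tested and higher in 1, Ltf. With limma voom 4 were lower, and 2 were higher with the replicate block and without HiMed replicate 1 or Low replicate 2. Muc5b, a gland mucin, averaged 1.70 ± 1.29 CPM in HiMed and 78.6 ± 17.6 CPM in Low. Dmbt1, a secreted scavenger protein, averaged 49.2 ± 15.2 CPM in HiMed and 899.6 ± 338 CPM in Low. The list summed to 1380 to 2450 CPM in HiMed and 1140 to 3170 CPM in Low, with Ltf itself on the list. Bpifb9b, Lcn11 and Pip had 0 counts in all 6 libraries. The part of gland cells in the other differences was not tested.

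Of 12 fibroblast and stroma markers, 6 were tested, and 2 rose and 2 fell (1 without HiMed replicate 1 or 3 or Low replicate 3). Twist2, given above, was among those that rose (log2 fold change 6.94, SE 0.60, adjusted p = 2.0e-06). Dcn, the matrix protein decorin, had 36.1, 32.4 and 33.6 CPM in HiMed, against 587, 629 and 607 CPM in Low (log2 fold change -4.16, SE 0.38, adjusted p = 3.3e-06), and the list summed to 124 to 160 CPM in HiMed and 606 to 650 CPM in Low, most of the Low sum being Dcn. The collagen genes Col1a2 and Col3a1 had at most 9 counts in any of the 6 libraries, and Lum and Dpt had 0 in all 6. Of 15 neuron and Schwann cell markers, 10 were tested, and 4 fell and none rose, and 1 rose without HiMed replicate 1 or 2. Mbp, a myelin protein, averaged 32.1 ± 4.44 CPM in HiMed and 68.2 ± 1.29 CPM in Low (log2 fold change -1.09, SE 0.11, adjusted p = 6.8e-06). Tubb3, a neuronal tubulin, averaged 12.1 ± 3.08 CPM in HiMed and 40.4 ± 14.02 CPM in Low (log2 fold change -1.73, SE 0.32, adjusted p = 0.0013). The list summed to 48.9 to 51.9 CPM in HiMed and 113 to 140 CPM in Low. The part of these cells in the differences above was not tested.

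Leukocyte, endothelial, muscle and red cell markers were low in both bins. Of 14 leukocyte markers, the 8 tested summed to 34 to 69.8 CPM in HiMed and 29.6 to 48.3 CPM in Low. Cd3e, not tested, was at 0 in all 6 libraries. Of 10 endothelial markers, the 6 tested summed to 25.5 to 42.5 CPM in HiMed and 15.9 to 26.2 CPM in Low. Cdh5, Kdr and Emcn, not tested, were at 0. The angiopoietin receptor gene Tek was the endothelial marker that rose, with 17.8 ± 6.31 CPM in HiMed and 4.05 ± 1.21 CPM in Low (log2 fold change 2.12, SE 0.38, adjusted p = 0.0010). The tested muscle markers (3 of 8) stayed at or under 3.24 CPM in sum and the tested red cell markers (4 of 6) at or under 9.2 CPM.

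Melanocyte and Merkel cell markers gave mixed values. Of 4 melanocyte markers tested, 1 rose (Kit) and 1 fell, with a median of -0.48. None fell when any 1 of the 6 libraries was left out. Kit, a receptor shared by melanocytes and several epithelia, averaged 109 ± 6.15 CPM in HiMed and 29.2 ± 2.53 CPM in Low (log2 fold change 1.90, SE 0.11, adjusted p = 6.9e-08), while Tyr, Tyrp1 and Mlana had 0 counts in all 6 libraries. Of 6 Merkel cell markers tested, Krt20 and Sox2 rose, and Piezo2, the touch channel, fell to 9.54 ± 1.55 CPM in HiMed and 49.3 ± 4.01 CPM in Low (log2 fold change -2.37, SE 0.18, adjusted p = 5.7e-07); 2 fell without HiMed replicate 3. Atoh1, the defining factor of Merkel cells, had 7 counts in 1 HiMed library and 0 in the other 5 libraries.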

How the data were processed

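Per the labels' protocols, circumvallate papilla epithelium was dissociated, sorted by GFP brightness into 4 bins and sequenced as polyadenylated RNA (NuGen kit, NovaSeq). The 2 deposited tables hold the authors' expected counts and TPM per gene symbol; per the submitters' processing notes, Salmon 1.4.0, DESeq2 1.28.1 and the build mm39 were used. The sources used here do not name the annotation, the role of DESeq2 or a strand setting, so reads of overlapping or near-identical genes may be shared between symbols.

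The deposited expected counts were rounded and tested with edgeR 4.0.16 (R 4.3.3): filterByExpr with a minimum count of 10, TMM scaling, 1 term per bin over all 12 libraries, the contrast HiMed minus Low, and Benjamini-Hochberg adjustment over the 17432 genes tested of 52670 symbols. The 35238 symbols left out held 0.034% of counts. A standard error is the one the F statistic implies. A bound stands against 3 counts over a bin (0.0223 CPM in HiMed, 0.0284 CPM in Low) and covers counting error only. The deposited TPM values served to compare genes and as an alternative unit. Sums of CPM over a gene list take its tested members only. limma 3.58.1 and DESeq2 1.42.0 served as alternatives, and the fit was tested on simulated data. Libraries of a bin differed by more than counting noise (chi-square per degree of freedom 32.1 to 79.3), so none is a copy.

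Replicate numbers 1 to 3 occur in both bins. Deviations from the bin mean correlated at 0.148, 0.184 and 0.118 in same-number pairs over 11094 genes and at -0.158 to -0.025 in other pairs. On this ground a replicate block that pairs equal numbers was run as an alternative. The main fit, behind the calls, standard errors and adjusted p of the Results, did not use the pairing. No label states the pairing outright or gives a batch or sorting day.

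The comparison, the 52 gene lists and the rule for named genes were chosen with earlier results of these data known, and 4 further lists after values were seen. The rule names Sox2, the reporter, up to 15 genes per direction with the largest called change (libraries not overlapping, at least 10 CPM in the higher bin), up to 4 called members per direction and list (at least 1 CPM), other members by value, and set marker genes. Some genes that the rule names are not reported here. Promoter windows came from RefSeq.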

Additional observations from a re-analysis of the deposited data

How the results depend on the processing

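The log2 fold change of Sox2 lay between 1.22 and 1.38 under all 16 alternatives, with its call kept. The counts of genes higher and lower were 1925 and 1840 in the fit of the 6 libraries alone, 2138 and 1995 with RLE size factors, 2376 and 2300 with DESeq2, 2198 and 1793 with no filter on low counts, and 2257 and 1907 where 3 libraries had to reach 1 CPM. The balance turned with limma voom (1962 and 2166). TPM values gave 1991 higher and 1249 lower with a pseudocount of 1, and 2002 and 1223 with 0.1. The cause was not tested. Leaving out 1 library in turn gave 1749 to 2069 higher and 1447 to 1637 lower. With the replicate block, which uses the pairing by number, 2329 rose and 2156 fell, of which 2121 and 1909 were called without it, and no call of a named gene changed except that of Mt4. Of 195 named genes recomputed, 176 kept their direction and side of the threshold under all 16 alternatives.

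Krt8, Trpm5 and Krt18 were not called and changed sign. Krt8 was at 0.01 with library size only, 0.07 with either TPM pseudocount, 0.06 without HiMed replicate 2 and 0.12 without Low replicate 3. Trpm5 was at 0.01 with either pseudocount and 0.10 without Low replicate 3. With 1 library left out in turn, Krt8 lay between -0.13 and 0.12, Trpm5 between -0.45 and 0.10, and Krt18 between -0.00 and 0.21, with its lowest value without Low replicate 1. Scaling by library size only gave 2340 higher and 1689 lower, 58.1% higher against 52.4%, and TPM 61.5% and 62.1%. Depth limits genes near the floor, such as Car4, and 3 pools a bin limit the precision of all values.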
